A study of Mus musculus with 14 samples.

Results

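In 3 of 8 libraries of mouse germinal vesicle (GV) oocytes, the RNA counts were spread more evenly over genes than in the other 5. The 3 flatter libraries were selected on a measured value, the share of all counts that fell on a library's 100 most abundant genes, with a limit of 45%. They were CKO 1, CKO 2 and WT 2. The other GV libraries were CKO 3, CKO 4, WT 1, WT 3 and WT 4, and the whole series held 14 libraries. Because the counts themselves chose the libraries, every difference between the classes is given below as a description without a test, and only the genotype, which comes from the labels, was tested.

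The study examined loss of MFF, a mitochondrial outer membrane protein that recruits the fission enzyme DRP1, in oocytes. CKO oocytes came from Mff fl/fl mice that also carried Gdf9-Cre, a Cre recombinase driven by an oocyte promoter active from early follicles on. WT oocytes came from mice with the same Mff fl/fl genotype and no Cre, so the floxed allele was present in both genotypes. GV libraries numbered 4 CKO and 4 WT, and ovulated libraries 3 CKO and 3 WT. First-strand cDNA was made with SMART-SeqII and amplified by PCR. The labels name neither the age of the mice nor how many oocytes or animals stood behind a library. The p-values below therefore describe the spread between libraries, which may be technical.

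A fully grown GV oocyte waits in prophase of meiosis I and makes almost no new RNA. It lives on messages stored during growth, many of them kept untranslated with short poly(A) tails. When meiosis resumes, some stored messages are translated and others are removed, and the ovulated egg therefore holds a different set from the GV oocyte.

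The top-100 share was 35.2% in CKO 1, 42.4% in CKO 2 and 38.1% in WT 2, against 49.8% in CKO 3, 48.2% in CKO 4, 51.1% in WT 1, 48.5% in WT 3 and 51.0% in WT 4. CKO 2 was the library just under the limit and CKO 4 the one just over it. The class means were 38.6 ± 3.63% and 49.7 ± 1.35% (SD, n = 3 and 5). The 6 ovulated libraries, counted in a table of their own, held 25.0% to 35.4% of their counts in their 100 most abundant genes. CKO 2 and WT 2 therefore lay between the other GV libraries and the ovulated ones. CKO 1 lay inside the ovulated range only through ovulated WT 3, at 35.4%, since the other ovulated libraries held 25.0% to 30.5%. On deposited FPKM this order was not seen. The share was 38.3% in CKO 1, 43.0% in CKO 2 and 38.3% in WT 2, inside the ovulated range of 36.8% to 47.1%, which overlapped the other GV libraries at 46.2% to 48.3%. Depth was alike, with 26575600 to 28847400 counts per GV library and 26690800 to 27833600 per ovulated library.

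**Figure D1:**
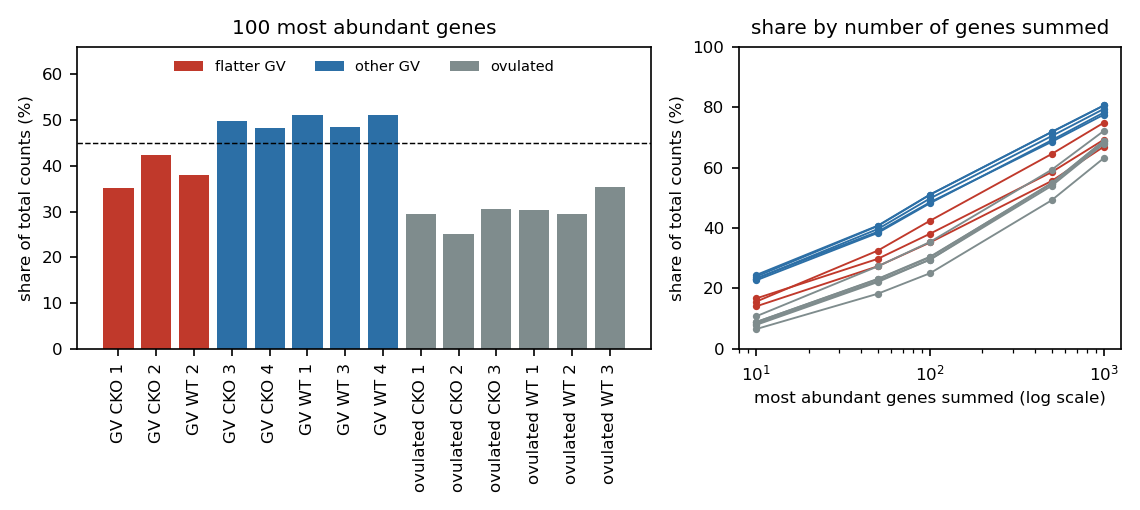
Left, bars give the percent of each library's counts in its 100 most abundant genes, with the 45% limit dashed; right, the same percent for 10 to 1000 genes summed (log axis). The flatter GV libraries (red) hold 35.2% to 42.4%, the other GV libraries (blue) 48.2% to 51.1% and the ovulated libraries (grey) 25.0% to 35.4%.

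The most abundant genes that together held 50% of a library's counts numbered 339 in CKO 1, 172 in CKO 2 and 266 in WT 2, against 93 to 115 in the other GV libraries. Genes with at least 1000 counts numbered 3270 to 4127 in the flatter libraries and 2811 to 3112 in the other GV libraries. Ranking genes once by their mean over all 8 libraries, the 4 most abundant genes held 10.5 ± 1.42% of the counts in the flatter libraries and 18.0 ± 0.779% in the others. Genes ranked 11 to 100 held 22.7 ± 3.25% and 26.2 ± 0.788%. The shares of genes ranked 101 to 500 were alike, at 20.7 ± 1.11% and 20.5 ± 0.298%. Genes ranked 501 to 1000 held 10.9 ± 0.457% and 8.91 ± 0.165%. Genes ranked 1001 to 5000 held 25.5 ± 3.25% in the flatter libraries and 17.9 ± 1.04% in the others, and genes ranked 5001 and on 4.95 ± 1.03% and 3.11 ± 0.249%. Counts were thus lower in the top 100, as the choice of libraries requires, and higher in every group from rank 501 on. The share of the first 4 genes differed by -7.51 percentage points. The top-100 shares, which rank genes within each library, differed by -11.2 points. CKO 2 stood apart from CKO 1 and WT 2 in ranks 11 to 100, where it held 26.4% of counts, against 20.5% and 21.2% in those 2 and 25.2% to 27.1% in the other GV libraries.

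The first 4 genes were Clec16a, an endosomal regulator of autophagy and mitophagy, Hexdc, a hexosaminidase, Hddc3, a nucleotide pyrophosphohydrolase of the HD-domain family, and Dnajc14, a DnaJ co-chaperone. In GRCm38, the assembly that mm10 names, they lie at chr16:10545309-10744878, chr11:121204353-121222657, chr7:80343075-80346716 and chr10:128804904-128819448. They were examined together with Ccdc82, a coiled-coil protein gene, and Spopl, an adaptor of a cullin ubiquitin ligase, a choice of 6 made after their values were seen. All 6 had counts that were not whole numbers in all 8 GV libraries. That was not particular to them, since 1789 genes in all had such counts, Spin1, Obox2 and Ubb among them. Such fractions arise where reads are divided between features, so the split between these genes and any others with the same sequence is uncertain.

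Some of the 6 do share sequence in GENCODE M21 transcripts. Stretches of 31 bases were compared between all their transcripts, on the annotated strand. Hexdc and Ccdc82 shared 430 such words, Ccdc82 and Spopl 101, and Hexdc and Spopl 69. Clec16a shared 7 with Hexdc, all inside a single run of 37 bases, and Hddc3 and Dnajc14 shared none with the rest. The run is shown because it joins the 2 genes with the most counts. Capitals mark the bases common to both, with 12 bases on either side in lower case. Each stretch belongs to a processed transcript without a reading frame, on the plus strand. In Clec16a the run spans a splice junction between chr16:10630800 and 10631528, and in Hexdc it lies in a single exon at chr11:121205806-121205842 (both GRCm38).
Clec16a: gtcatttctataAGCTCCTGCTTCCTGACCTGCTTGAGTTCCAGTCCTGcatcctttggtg
Hexdc: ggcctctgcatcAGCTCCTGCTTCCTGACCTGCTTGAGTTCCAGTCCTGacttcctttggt

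As parts of the library totals, without any scaling factor, Clec16a had 39030 CPM in CKO 1, 45286 in CKO 2 and 52682 in WT 2, against 80655 in CKO 3, 75912 in CKO 4, 86956 in WT 1, 80690 in WT 3 and 83874 in WT 4. Hexdc had 19909, 22707 and 26441 CPM in the flatter libraries in that order, against 38397 to 42037 CPM in the others. Every flatter library lay below every other GV library for both genes, and CKO 1 was the lowest. The 6 genes together held 11.4 ± 1.54% of counts in the flatter libraries and 19.5 ± 0.838% in the others. Their proportions to each other moved much less than their levels. The ratio of Hexdc to Clec16a was 0.501 to 0.510 in the flatter libraries and 0.483 to 0.506 in the others, a coefficient of variation of 2.21% over the 8 libraries. That of Spopl was 3.32%, of Dnajc14 4.66%, of Ccdc82 7.27% and of Hddc3 9.36%, beside a median of 54.1% over 4677 genes with a mean of at least 20 CPM. Whether shared reads contribute to the common movement was not tested. With the 6 genes left out of the counts, an alternative added after the data were seen, the top-100 share was 31.5 ± 4.05% in the flatter libraries and 38.5 ± 1.24% in the others.

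**Figure D2:**
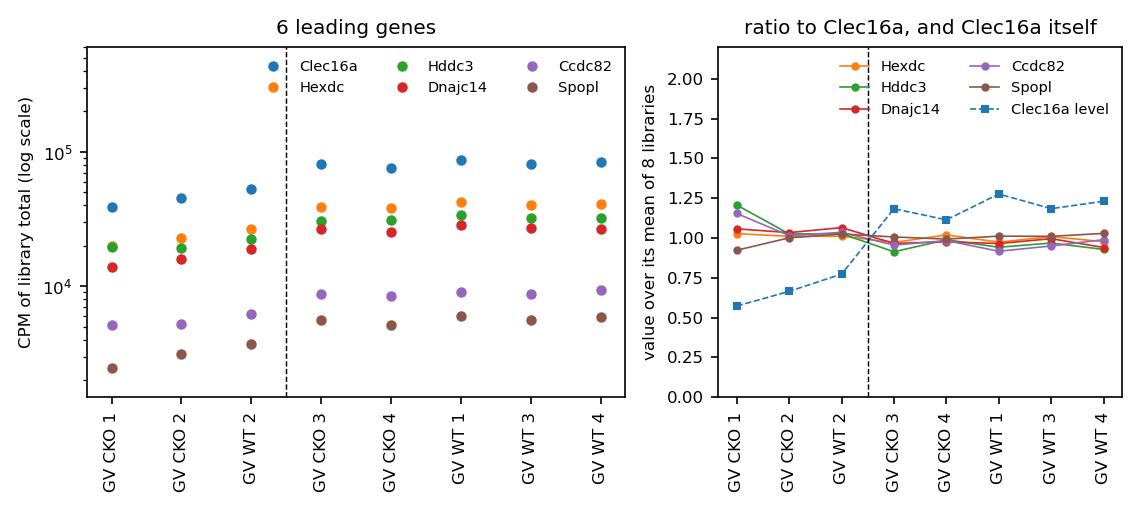
Left, CPM of library totals (log axis) of 6 abundant genes in each GV library, with the flatter libraries left of the dashed line. Right, each gene's ratio to Clec16a over its mean of 8 libraries (solid lines), and the Clec16a level drawn the same way (dashed line). The Clec16a level is 39030 to 52682 CPM in the flatter libraries and 75912 to 86956 CPM in the others, while the Hexdc ratio stays between 0.483 and 0.510.

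Among all genes tested, 77 stood in the 100 most abundant of every GV library. Of these, 35 were lower in all 3 flatter libraries than in all 5 others and 0 were higher, beside 14.6% lower and 11.7% higher over all genes tested, with a median log2 difference of -0.78. Lower values are built into this set, since the share of such genes chose the libraries. Gdf9, an oocyte growth factor that acts on granulosa cells, had 3958 normalised CPM in CKO 1, 4682 in CKO 2 and 5278 in WT 2, against 8647 to 13275 in the other GV libraries (log2 difference -1.28). Ubb, a polyubiquitin gene, had 5498 to 6897 CPM in the flatter libraries, against 8325 to 10605 CPM in the others (-0.65). Spin1, a reader of histone methylation, overlapped between the classes, at 8470 to 11652 and 10931 to 12564 CPM. Normalised CPM here and below are scaled by TMM, which removed a general shift: the TMM factors were 1.41, 1.09 and 1.39 in CKO 1, CKO 2 and WT 2 and 0.785 to 0.939 in the others.

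Of 12298 genes tested, 530 were higher in the flatter libraries past the limits used here, which were no overlap between the 3 and the 5 libraries and a log2 difference of at least 1 with genotype as covariate. That is 4.31% of the genes. Another 483 were lower, or 3.93%. Without the fold limit, 1444 genes (11.7%) lay above all other GV libraries and 1796 (14.6%) below. The median log2 difference of all genes was -0.02. Scaled by library totals alone, the median was 0.57 and the split 2148 higher against 49 lower, and on deposited FPKM it was 0.32 with 928 against 35. Directions below are therefore relative to the median gene. CKO 2 was the mildest of the 3. With CKO 2 left out, 1211 genes were higher and 554 lower past the limits, and with CKO 1 left out 349 were higher and 612 lower. Against the other libraries of their own genotype, over 7746 genes with a mean of at least 5 CPM, CKO 1 had 908 genes at least 1 log2 unit higher and 553 at least 1 lower, CKO 2 had 83 and 534, and WT 2 had 364 and 662.

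Genes past the limits were ranked if they had a mean of at least 5 CPM in 1 class and no predicted-gene name (Gm, Rik or LOC). Among the 12 ranked genes furthest above the others were Zbtb18, Ubqln2, Slc24a5, Sh3pxd2a, Fam8a1, Pgrmc2, Ppp3cb, Rtn4, Brpf3, Mapk8 and Mex3c. Zbtb18, a zinc-finger transcriptional repressor, had 19.9 CPM in CKO 1, 4.89 in CKO 2 and 7.01 in WT 2, against 2.21 in CKO 3, 2.60 in CKO 4, 1.33 in WT 1, 2.19 in WT 3 and 1.17 in WT 4 (log2 difference 2.28). Ubqln2, which shuttles ubiquitinated proteins to the proteasome, had 33.8, 8.02 and 9.87 CPM, against 3.00 to 4.85 CPM in the other GV libraries (2.13). In both genes CKO 1 was far above the other flatter libraries. Mapk8, the stress kinase JNK1, had 107, 43.2 and 53.5 CPM, against 14.4 to 24.2 CPM (1.77). Fam8a1, a cofactor of protein degradation at the endoplasmic reticulum, had 98.8, 28.2 and 42.3 CPM, against 9.68 to 18.8 CPM (1.93). Slc24a5, a cation exchanger best known from pigmentation, was highest in WT 2, at 16.2 CPM, with 10.3 in CKO 1 and 13.2 in CKO 2, against 0.394 to 6.13 CPM (2.11). Single libraries weighed on some of these differences. Without CKO 3, that of Slc24a5 was 3.33, and without CKO 1 that of Ubqln2 was 1.38, of Pgrmc2 1.30 and of Brpf3 1.21.

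Among the 12 genes furthest below in the same ranking were Tuba1a, Xpnpep1, Me3, Wdr31, Pou5f1, Tubb2a, Tnc, Tubb2b, Tubb4b, Tubb3 and Tle6. Of these, 5 encode tubulins. Tubb4b, a beta-tubulin, had 656 CPM in CKO 1, 1095 in CKO 2 and 659 in WT 2, against 2813 in CKO 3, 3223 in CKO 4, 4230 in WT 1, 2597 in WT 3 and 3833 in WT 4 (log2 difference -2.05). Tubb2a had 181, 236 and 184 CPM, against 657 to 1211 CPM (-2.12). Tuba1a, an alpha-tubulin, had 1.45, 2.00 and 1.24 CPM, against 6.38 to 17.2 CPM (-3.17). Reads of near-identical tubulin copies such as Tubb2a and Tubb2b may have been divided in the authors' counting, so their separate values are uncertain. Xpnpep1, a cytosolic aminopeptidase, had 37.2, 39.7 and 24.2 CPM, against 98.9 to 551 CPM (-3.10), and its spread within the other GV libraries was wide. Pou5f1, the transcription factor OCT4, had 2.34, 4.13 and 3.52 CPM, against 9.36 to 24.6 CPM (-2.16).

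**Figure D3:**
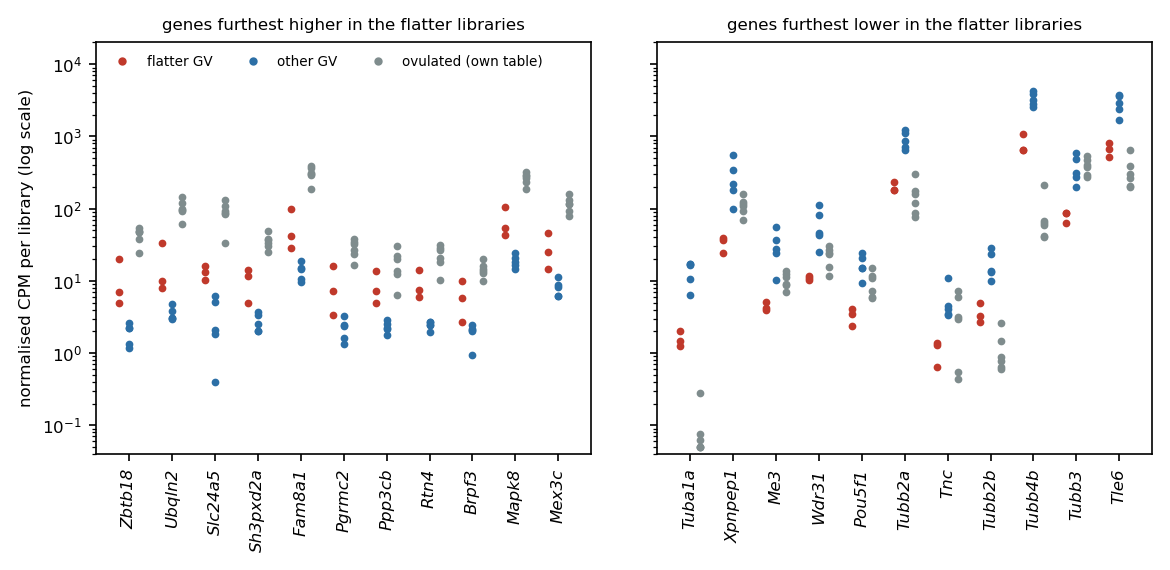
Normalised CPM per library (log axis) of 11 of the 12 genes furthest higher (left) and 11 of the 12 furthest lower (right) in the flatter GV libraries (red) than in the other GV libraries (blue), beside ovulated libraries (grey), which were normalised in a table of their own. Predicted genes and those with a mean under 5 CPM in both classes were not ranked. Values under 0.05 are drawn at 0.05. Red and blue points do not overlap in any of these genes, which is how the genes were chosen, and Zbtb18, for example, has 4.89 to 19.9 CPM in red, 1.17 to 2.60 in blue and 24.3 to 54.0 in grey.

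The gene lists were chosen with results of these data known, and their counts stand beside 4.31% higher and 3.93% lower over all genes tested. Of 32 tubulin and actin genes measured, 11 were lower past the limits and 1 higher, with a median log2 difference of -0.50 beside -0.02 over all genes. Their summed level was 4775 to 5063 CPM of library totals in the flatter libraries and 6614 to 8498 CPM in the others. Of 37 genes of the subcortical maternal complex and other maternal-effect genes, which are needed for the first cleavages, 6 were lower and 1 higher (median -0.47). Tle6, a subunit of that complex, had 672 CPM in CKO 1, 516 in CKO 2 and 806 in WT 2, against 1695 to 3771 CPM (-1.98). Padi6, an enzyme of the oocyte's cytoplasmic lattices, had 1259, 1534 and 2093 CPM, against 4574 to 7047 CPM (-1.75). Khdc3, another subunit, had 49.2, 63.6 and 97.8 CPM, against 165 to 416 CPM (-1.68).

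Oocyte-specific families had medians below 0. Of 47 oocyte F-box and Oog genes, 2 were lower and 0 higher (median -0.62), and 2 of 47 is 4.26%, near the 3.93% of all genes. Of 16 secreted and zona pellucida genes, 2 were lower and 0 higher (median -0.52). Astl, the protease ovastacin of the cortical granules, had 219, 96.3 and 325 CPM in CKO 1, CKO 2 and WT 2, against 457 to 817 CPM (-1.47). Of 20 Obox and early-embryo genes, 0 passed the limits either way (median -0.41), and CKO 2 lay apart from CKO 1 and WT 2. Their sum was 12712 CPM of library totals in CKO 1, 28601 in CKO 2 and 13257 in WT 2, against 20493 to 28353 CPM in the others. Obox2, an oocyte homeobox gene with close paralogs, had 4126, 11155 and 3969 CPM, against 9221 to 13186 CPM. The F-box and Oog genes showed the same split, with sums of 45251, 73687 and 51787 CPM against 53481 to 64088 CPM.

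Of 53 genes of chromatin and DNA methylation, 11 were higher and 1 lower (median 0.40). Suz12, a core subunit of Polycomb repressive complex PRC2, had 175 CPM in CKO 1, 87.0 in CKO 2 and 105 in WT 2, against 32.0 to 56.0 CPM in the other GV libraries (1.53). Ep300, a histone acetyltransferase, had 7.79, 3.85 and 6.30 CPM, against 1.26 to 2.17 CPM (1.73). Setd1a, a histone H3 lysine methyltransferase, had 12.7, 6.33 and 9.63 CPM, against 2.81 to 4.78 CPM (1.44). Of 17 oocyte transcription factors, 1 was higher and 2 lower (median 0.49). Nobox, a homeobox factor of follicle growth, was 1 that lay below, with 314 to 349 CPM in the flatter libraries and 588 to 1009 CPM in the others. Kit, the receptor on the oocyte surface, lay above, at 81.2 to 148 CPM and 56.98 to 79.3 CPM. Both were named after their values were seen.

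Regulators of stored messages were mixed. List examples were taken only in the direction of the list median, so lower members are not shown here. Of 39 genes of maternal mRNA storage and translation control, 4 were higher and 4 lower (median 0.11). Cpeb4, which binds cytoplasmic polyadenylation elements, had 28.7, 14.0 and 17.7 CPM in CKO 1, CKO 2 and WT 2, against 4.35 to 8.92 CPM (1.51). Of 34 deadenylation and decapping genes, 5 were higher and 1 lower (median 0.07). Cnot6, a catalytic deadenylase of the CCR4-NOT complex, had 31.9, 16.2 and 18.5 CPM, against 4.82 to 10.4 CPM (1.37). Of 22 small RNA pathway genes, 2 were higher and 0 lower (median 0.12). Of 43 spindle and cohesin genes, 6 were higher and 6 lower (median 0.19). Rad21, a cohesin subunit, had 77.7, 27.9 and 39.5 CPM, against 11.8 to 23.3 CPM (1.32).

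Of 48 genes of meiotic arrest and the cell cycle, 6 were lower and 2 higher (median -0.22). Mos, the kinase that drives MAPK signalling in the maturing oocyte, had 344 CPM in CKO 1, 684 in CKO 2 and 512 in WT 2, against 1022 to 1316 CPM (-1.15). Plk1, a mitotic kinase, had 104, 83.5 and 92.6 CPM, against 153 to 355 CPM (-1.25), and Cdc20, an activator of the anaphase-promoting complex, had 56.8, 47.0 and 49.8 CPM, against 78.7 to 141 CPM (-1.05). Of 23 stress and immediate early genes, 2 were lower and 0 higher (median -0.43). Atf4, the transcription factor of the integrated stress response, had 67.1, 54.1 and 64.5 CPM, against 137 to 234 CPM (-1.54). Of 45 proteasome genes, 2 were lower and 1 higher (median -0.34). As part of library totals, where the median gene was higher by 0.57, the proteasome sum was higher. It was 7981 to 9327 CPM in the flatter libraries and 6444 to 7534 CPM in the others.

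Lists of ribosomes and respiration are set beside 4.31% higher and 3.93% lower over all genes tested. Of 84 cytosolic ribosomal protein genes, 1 was lower and 0 higher (median -0.30). Rps2 was that gene, with 82.6, 81.3 and 95.1 CPM in CKO 1, CKO 2 and WT 2, against 154 to 227 CPM in the others (-1.05). Of 77 mitochondrial ribosomal protein genes 2 were lower and 0 higher (median 0.04), and of 84 respiratory chain genes 5 were lower and 0 higher (median 0.07). As parts of library totals, where the median gene was higher by 0.57, both sums were higher in the flatter libraries. They were 5642 to 6379 against 3657 to 4549 CPM, and 8544 to 9372 against 6038 to 7421 CPM. Of 23 mitochondrial fission and fusion genes, 1 was lower and 0 higher (median -0.23). That gene was Phb2, a prohibitin of the inner membrane, with 71.3, 62.5 and 56.3 CPM, against 100.3 to 189 CPM (-1.03). Among 81 spliceosome genes 5 were higher and 3 lower (median 0.08), among 33 of RNA polymerase II and transcription 2 and 0 (median 0.08), among 296 Zfp genes 6 and 9 (median 0.02), among 24 apoptosis genes 2 and 2 (median 0.00), and among 26 olfactory receptors 1 and 1 (median 0.20). Replication-dependent histones had 2 measured genes, 0 of them past the limits. Measured from the median of all genes, the medians of these lists kept their sign under TMM, median-of-ratios and library-total scaling.

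**Figure D4:**
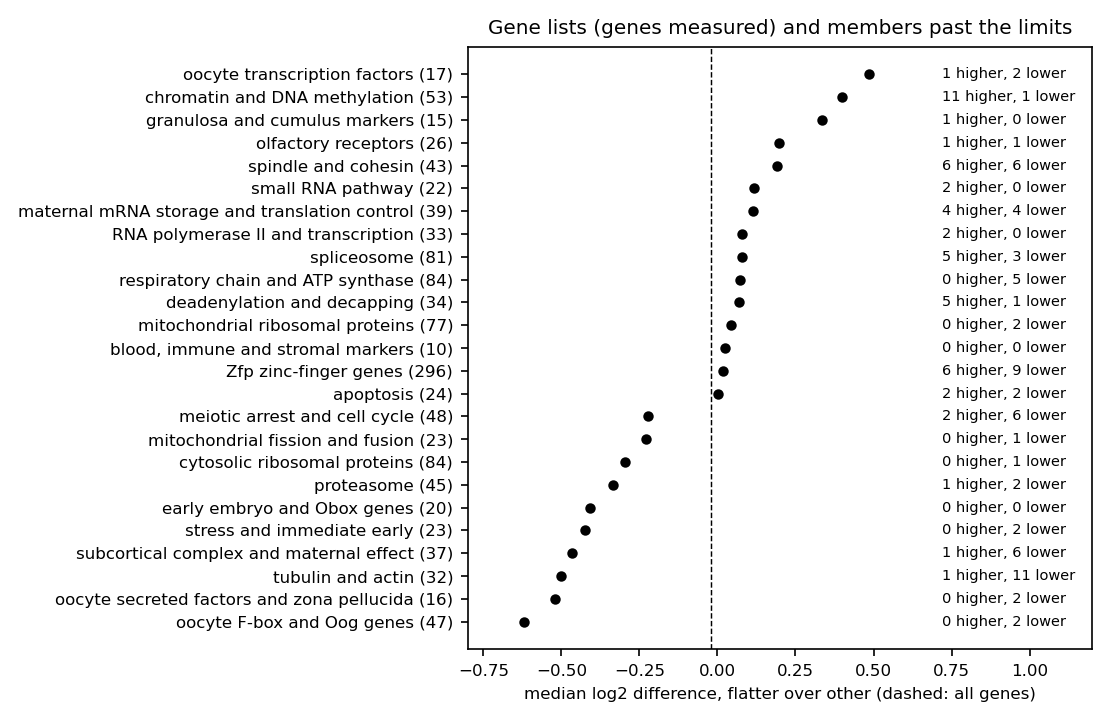
Median log2 difference, flatter over other GV libraries, of each gene list with at least 10 measured genes (number in brackets), with the counts of members past the limits at the right and the median of all genes dashed. The lowest medians are those of F-box and Oog genes (-0.62), secreted and zona genes (-0.52) and tubulins and actins (-0.50), and the highest those of oocyte transcription factors (0.49) and chromatin genes (0.40).

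All 12 oocyte markers examined were present in every GV library. Zp3 had 2994 to 3396 CPM of library totals in the flatter libraries and 3301 to 3806 CPM in the others, and Dppa3 had 3875 to 5944 and 2638 to 3284 CPM. Of 29 granulosa and cumulus markers in the table, 0 were at 0 in all GV libraries, and their sum was 91.6 to 108 CPM of library totals in the flatter libraries and 49.5 to 73.9 CPM in the others. After TMM scaling the measured ones summed to 64.1 to 97.8 and 52.9 to 86.3 CPM, which overlap. Of 31 blood, immune and stromal markers, also 0 were at 0 throughout, with sums of 167 to 201 and 110 to 138 CPM of library totals, and of 117 to 151 and 127 to 151 CPM after TMM scaling. Ms4a1, a B-cell gene, gave 106 to 141 of the first range and 69.99 to 103 of the second. The part of other cells in the class differences was not tested. In RNA from whole lysates, fewer cells of a type and less RNA per cell cannot be told apart.

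Genes on either side of the limits differed in transcript length and base composition. The longest protein-coding transcript of each gene was used, which was found for 97.6% of the tested genes. Its median length was 5646 bases among genes higher past the limits, 2513 among genes lower and 3082 among all tested. The median GC content was 45.9%, 53.3% and 49.2% in that order, and the median 3′ UTR length 2124, 748 and 1085 bases. With genes split into 5 equal groups by length, in the group with the longest transcripts, 12.5% were higher and 1.29% lower, with a median log2 difference of 0.40. In the second-shortest group, 1.50% were higher and 7.29% lower, with a median of -0.30. The shortest group lay between them, with a median of -0.05. Over all genes the log2 difference had a Spearman correlation of 0.284 with transcript length, -0.213 with GC content and 0.193 with 3′ UTR length. These correlations are across genes of the same 8 libraries, which share their depth and amplification. Their part in the class difference was not tested.

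The genotypes can be described apart. Over 7646 genes outside the top 100, the differences of CKO 1 from the other CKO libraries and of WT 2 from the other WT libraries, which have no library in common, had a Spearman correlation of 0.740 across genes. For CKO 2 and WT 2 it was 0.606, and for CKO 1 and CKO 2, which share their reference libraries, 0.485. All 3 libraries were picked by the same low top-100 share and were scaled together, so likeness between them is partly fixed by that choice. Between whole libraries, the correlation was 0.915 to 0.963 within the flatter class, 0.960 to 0.983 within the others and 0.858 to 0.955 between classes. CKO 2 did not sit closest to its own class, with 0.955 to CKO 3, against 0.953 to WT 2 and 0.915 to CKO 1.

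Ovulated levels, which come from a separately normalised table, were set beside those of the genes drawn in the plot of rises and falls. The same counts were not made over all genes tested, so those given here describe the drawn genes only. Of the 11 drawn genes that were higher in the flatter libraries, 8 had all 6 ovulated libraries above all flatter ones and 3 overlapped. Zbtb18 had 37.9 to 54.0 CPM in ovulated CKO and 24.3 to 49.2 CPM in ovulated WT libraries, above the flatter GV libraries. The 11 drawn genes that were lower were divided. In 3 (Tuba1a, Tubb2b and Tubb4b) all ovulated libraries lay below all flatter ones, with 63.0 to 210 and 40.5 to 60.1 CPM for Tubb4b in ovulated CKO and WT libraries. In 5 (Xpnpep1, Me3, Wdr31, Pou5f1 and Tubb3) all ovulated libraries lay above all flatter ones, and 3 overlapped. Xpnpep1 had 93.4 to 124 CPM in ovulated CKO and 69.7 to 158 CPM in ovulated WT libraries, above the 24.2 to 39.7 CPM of the flatter GV libraries. Pou5f1 had 5.74 to 10.9 and 7.16 to 15.2 CPM, also above the flatter libraries.

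The stage difference was also set beside the class difference with contrasts that have no library in common, an arrangement chosen after the data were seen, over 7744 genes with a mean of at least 5 CPM in GV libraries. In the first, WT 2 minus the other GV WT libraries was set beside ovulated CKO minus CKO 3 and CKO 4. The Spearman correlation across genes was 0.553, and 0.459 after ranks of transcript length and GC content were taken out. In the second, CKO 1 and CKO 2 minus CKO 3 and CKO 4 was set beside ovulated WT minus the other GV WT libraries, with 0.476 and 0.390. With genes split into 5 equal groups by the stage difference, in the group furthest higher in ovulated CKO libraries, 84.7% were higher in WT 2 than in the other WT libraries, with a median log2 difference of 0.58. In the group furthest lower it was 17.4%, with a median of -0.49. For the CKO libraries the shares were 87.1% and 26.02%, with medians of 0.53 and -0.32. Genes share amplification and sequence properties in all these libraries and are not independent replicates. The flatter libraries were picked by their share, so these values describe them and support nothing further.

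**Figure D5:**
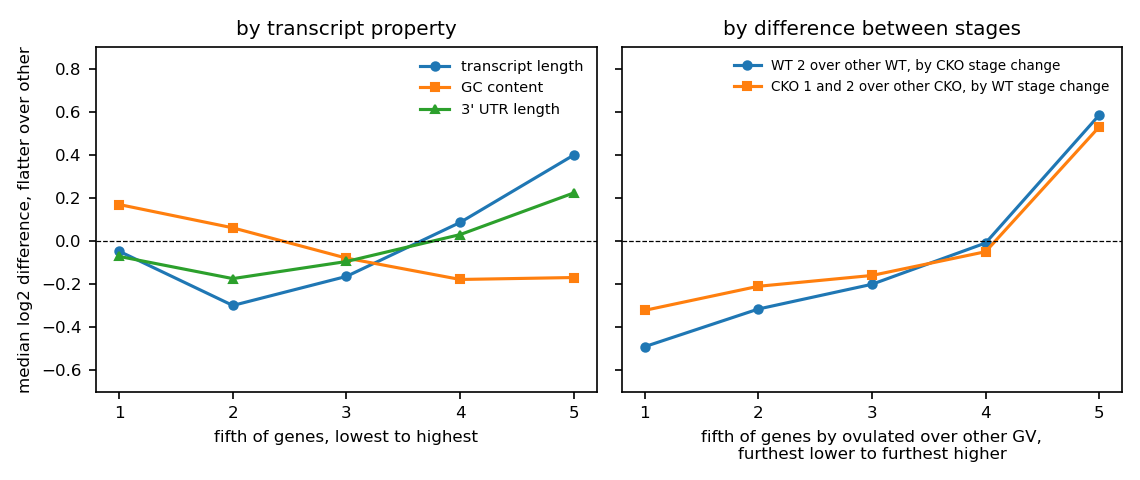
Left, median log2 difference, flatter over other GV libraries, in 5 equal groups of genes by transcript length, GC content and 3′ UTR length. Right, median log2 difference of WT 2 from the other WT libraries and of CKO 1 and CKO 2 from the other CKO libraries, in 5 equal groups of genes by the ovulated over GV difference in the other genotype. The group with the longest transcripts has a median of 0.40, and the groups furthest higher in ovulated oocytes have 0.58 and 0.53.

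Genotype could be tested because both classes hold both genotypes. Mff itself had 27.0 CPM in CKO 1, 31.1 in CKO 2 and 402 in WT 2 among the flatter libraries, and 40.8 in CKO 3, 37.3 in CKO 4, 822 in WT 1, 566 in WT 3 and 831 in WT 4 among the others. Low levels thus followed the CKO label in each class, and WT 2 was the lowest WT library. The top-100 share was 43.9 ± 6.62% in CKO and 47.2 ± 6.18% in WT (SD, n = 4 each), a difference of -3.29 percentage points with p = 0.486 in a two-sided exact permutation test, whose smallest possible p was 0.0286. The flatter libraries were 2 of 4 CKO and 1 of 4 WT.

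With the library class as covariate, edgeR's quasi-likelihood test called 8 of 12298 genes between CKO and WT at a Benjamini-Hochberg adjusted p under 0.05, or 0.0651%, of which 6 were higher in CKO and 2 lower. Mff fell by 4.08 on the log2 scale (SE 0.211, adjusted p = 1.07e-06). Mfhas1, which encodes a leucine-rich repeat GTPase, had 23.0 and 18.5 CPM in CKO 1 and CKO 2 and 1.60 in WT 2, and 16.1 and 18.3 CPM in CKO 3 and CKO 4, against 1.19 to 1.88 CPM in the other WT libraries. It rose by 3.60 (SE 0.229, adjusted p = 6.65e-06). The other calls were Hmgn3 (2.42), Tmem254c (2.02), Hormad2 (1.50), Phlda2 (1.45) and the predicted gene Gm29797 (1.29), which rose, and Myo1e, an unconventional myosin, which fell by 1.50. Of these, Hormad2 and Phlda2 were called under 8 of 16 alternatives, Tmem254c under 9 of 16 and Hmgn3 under 11 of 16. Myo1e was called under 9 of 17 and Gm29797 under 11 of 17. Mff and Mfhas1 were called under all 17 alternatives tried. Without the class covariate they were the 2 genes called, and without the 3 flatter libraries 63 genes were called, 33 higher and 30 lower. Single libraries moved the count too, to 101 without CKO 2 and to 2 without CKO 3.

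The difference in the CKO effect between the classes was described with the product of genotype and class. The counts chose the class, and the flatter WT class is a single library, WT 2, whose spread was taken from the rest of the design. A test cannot decide the question on these terms, so only sizes are given. Among the 6 genes ranked first in this fit, Ebna1bp2, a nucleolar protein of ribosome assembly, was the most abundant. It had 42.4 and 42.3 CPM in CKO 1 and CKO 2 and 18.7 in WT 2. In CKO 3 and CKO 4 it had 32.5 and 34.8 CPM, and in the other WT libraries 44.6 to 46.5 CPM (interaction log2 1.62). The other 5 genes were Gm15093, Hist1h2ap, Zfp965, Gm11758 and Gal3st2, each with a mean under 6 CPM in both genotypes.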

How the data were processed

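Per the labels, 8 GV and 6 ovulated oocyte libraries were made from Mff fl/fl mice with or without Gdf9-Cre. The authors deposited, per stage, estimated counts per gene, not normalised (17.6% of GV values above 0 were not whole, tolerance 0.001), and FPKM, which per the file headers are scaled by the authors to length and depth. The submitters' processing notes name mm10 as the genome build. No label or header names an aligner or counting program.

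The flatter libraries, the gene lists and the comparisons were chosen with earlier results of these data known. Counts were rounded and fitted in R 4.3.3 by edgeR 4.0.16's robust quasi-likelihood method (TMM factors, genes filtered with filterByExpr), with genotype and library class as terms; class differences carry no test. The ovulated table was normalised alone. P-values were adjusted by Benjamini-Hochberg. Genes were named by rule. They were Mff, the 10 most abundant, and the 12 largest differences each way with at least 5 CPM in 1 class, predicted genes left out. Up to 3 members per list were added, in the direction of the list median, and genotype calls, or the 6 smallest p. From these, the ones described were picked for their role. 1 gene of each 12 is not reported here. Transcripts came from GENCODE M21 and coordinates from RefSeq, both GRCm38. Deviations of libraries with the same replicate number had r = -0.48, 0.316, 0.0677 and 0.599 for numbers 1 to 4; not every pair passed 0.1, so no pairing was used. Over 12 pairs within genotypes, the lowest chi-square per degree of freedom was 20.3, so no library was counted as a repeat. Fits were tested on simulated counts. Alternatives used other scalings, filters, covariates, a fold limit, DESeq2 1.42.0, limma 3.58.1 on log2(FPKM + 1), thinning, a replicate block, and each library left out in turn.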

Additional observations from a re-analysis of the deposited data

Results flagged for a closer look

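In each genotype's 4 GV libraries, 60 values were examined for a library far from the rest, where chance marks about 1 in 20, and 3 were marked. The share of the 10 most abundant genes was 16.6% in WT 2, against 23.2% to 24.4% in the other WT libraries; WT 2 was chosen for a related share. Spin1 had 8853 CPM in CKO 1, against 11506 to 11781 CPM in the other CKO libraries, CKO 2 included. Ebna1bp2 had 18.7 CPM in WT 2, against 44.6 to 46.5 CPM in the other WT libraries. It was examined for its rank in the product of genotype and class, where WT 2 alone is the flatter WT class. Its mark therefore follows in part from that choice, and the 1 in 20 does not apply to it. Genes named for a class difference were left out, since WT 2 against the other WT libraries is the contrast that chose them.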

How the results depend on the processing

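The top-100 shares of the classes differed by -11.2 percentage points, by -8.06 for 10 genes, -7.34 for FPKM and -7.06 without the 6 leading genes (an alternative added after the data were seen), and by -13.1 to -9.49 with each library left out. The 1013 genes past the limits became 2197 by library totals, 575 (374 higher, 201 lower) at a mean of at least 10 CPM, 41 at a log2 limit of 2, and 961 (without CKO 1) to 1765 (without CKO 2) with each library left out, where the no-overlap limit covers fewer libraries. Of the genes named for a class difference, 0 called ones changed sign. The 8 genotype calls became 2 without the class covariate, 17 with the top-100 share in its place, 63 without the flatter libraries, 137 with DESeq2, 76 without a filter, 3 at 10 CPM, and 2 to 101 with each library left out, where they were 101 without CKO 2, 50 without CKO 1, 2 without CKO 3, WT 2, WT 3 or WT 4, 4 without CKO 4 and 5 without WT 1; the cause was not tested. Counts for the product of genotype and class decide nothing, since the flatter WT class is 1 library, WT 2, which cannot be left out. The interaction count given next, with the replicate block, was the highest of all settings tried and is not read as a finding. With the replicate block the counts were 1643 genes past the limits, 126 genotype calls and 155 interaction calls; the numbers pair no samples by the labels, and not every library correlated best with its own number. The CKO minus WT share stayed between -6.32 and -0.383 points with each library left out, with p 0.114 to 0.971 in the exact permutation test. The comparison rests on 3 and 5 libraries of at least 26575600 counts, and with counts thinned to the smallest library 1004 genes passed the limits.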
